A study of Mus musculus with 6 samples.

Results

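The second heart field genes examined here were 9 genes expressed in, or acting on, the progenitors that lengthen the heart tube: *Isl1*, *Fgf8*, *Fgf10*, *Six2*, *Eya1*, *Foxc1*, *Foxc2*, *Foxh1* and *Pou4f1*. Each was represented by the transcript cluster, which is the unit the array gives a gene, annotated to that gene alone. Each gene had 1 such cluster, so no choice between clusters arose, and these were 9 of 23332 clusters in the table and 9 of 10439 in the comparison. RNA came from hearts dissected at E9.5, with 3 arrays labelled wildtype (Mesp1+/+; Hic2 FL/FL) and 3 labelled as conditional mutants (Mesp1Cre/+; Hic2 FL/FL). By the labels both groups carried floxed *Hic2* alleles and the mutants also Cre, while the methods allow Hic2 FL/+ embryos among the wildtype as well. Cre is knocked into *Mesp1*, a gene of the early anterior mesoderm, and replaces its coding sequence, so the mutants had a single working copy of *Mesp1* and that loss cannot be told apart from the loss of *Hic2*. For each array 4 to 6 hearts were pooled, with circulating blood left in, and the pools were described in the methods as separate biological replicates taken from embryos without a phenotype. Values are log2 intensities, normalised by RMA before deposit, and a difference is the mutant mean minus the wildtype mean of these. Probe brightness is not comparable between clusters, so a difference in level between genes is not read as one in expression. Sums and medians of levels over a list were compared only between arrays, and the brightest clusters weigh most in the sums. In whole-heart RNA, fewer cells of a type and less RNA per cell cannot be told apart.

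The second heart field is a population of mesodermal progenitors that lies behind and around the heart tube, in the pharyngeal and splanchnic mesoderm, and adds cells to the outflow tract and right ventricle at the arterial end and to the atria at the venous end. Its cells keep dividing and are held undifferentiated by signals that include FGF8 and FGF10, and most of them express the LIM homeodomain factor ISL1. Differentiation into heart muscle goes with loss of these progenitor genes, and they are found in the most recently added parts of the heart and in the pharyngeal tissue beside it.

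Promoter sequence was found for 5 of the 9 genes (*Isl1*, *Fgf10*, *Six2*, *Foxc1* and *Pou4f1*) in RefSeq, build GRCm38.p6. The 250 bases before the start of transcription are shown for *Fgf10* and *Foxc1*, whose mutant arrays all lay below the wildtype arrays, and for *Isl1*, whose values differed most between pools. Capitals in *Fgf10* mark TGTTTAC, a core bound by forkhead factors such as FOXC1 and FOXC2. In the other sequences they mark GGCA, the core that HIC proteins bind, which reads TGCC on the opposite strand. *Fgf10* lies at chr13:118714449-118714698 on the plus strand, *Foxc1* at chr13:31806396-31806645 on the plus strand and *Isl1* at chr13:116309689-116309938 on the minus strand.
Fgf10: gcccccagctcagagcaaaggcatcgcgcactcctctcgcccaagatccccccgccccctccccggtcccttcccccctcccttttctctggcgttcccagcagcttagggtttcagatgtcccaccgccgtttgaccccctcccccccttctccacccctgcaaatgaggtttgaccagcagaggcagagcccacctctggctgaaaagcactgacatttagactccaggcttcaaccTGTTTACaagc
Foxc1: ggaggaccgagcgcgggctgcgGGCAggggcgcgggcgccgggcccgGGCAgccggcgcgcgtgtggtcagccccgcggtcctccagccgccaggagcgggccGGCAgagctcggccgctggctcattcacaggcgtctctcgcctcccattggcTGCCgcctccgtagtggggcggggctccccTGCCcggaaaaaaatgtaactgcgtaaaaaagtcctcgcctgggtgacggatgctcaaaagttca
Isl1: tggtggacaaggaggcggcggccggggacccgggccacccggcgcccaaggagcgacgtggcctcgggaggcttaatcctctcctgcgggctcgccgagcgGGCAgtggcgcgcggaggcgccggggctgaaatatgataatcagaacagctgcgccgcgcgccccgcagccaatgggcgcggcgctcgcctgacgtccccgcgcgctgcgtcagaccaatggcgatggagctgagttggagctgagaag
The forkhead core was present on either strand in 1 of the 5 promoters, that of *Fgf10*, where it began 11 bases before the start, and in 3.17% of 32851 promoter windows of this length. GGCA was present in all 5 and in 88.2% of the windows, so it is common to most genes. *Foxc1* had 5 copies, *Fgf10* and *Six2* 2 each, and *Isl1* and *Pou4f1* 1 each. TAAT, the core of many homeodomain sites, was present in *Isl1* and *Six2* and in 54.9% of the windows. In these promoters no match shared bases with a match to another of the motifs. A match is a description of these letters, and no binding data were analysed here.

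*Hic2* itself, which encodes a BTB zinc finger repressor, measured 9.35, 9.36 and 8.91 on the wildtype arrays and 8.27, 8.23 and 8.37 on the mutant arrays, a difference of -0.92 (standard error 0.137, adjusted p = 0.125, limma). The groups did not overlap, and which probes lie within the deleted part was not analysed here. *Mesp1* was below the filter in both groups, at means of 5.22 and 5.28. Each pair of the 6 arrays correlated at 0.988 or above, and the median difference over all clusters tested was -0.09, with 71.8% below 0. The summed linear values of the 6 cardiomyocyte markers tested, of 13 listed, lay between 70926.5 and 76054.7 in wildtype and between 71283.3 and 80804.7 in the mutants. Genes of red cells ran higher in the mutants, with a median log2 level over 21 erythroid genes of 8.11 to 8.88 in wildtype and 8.89 to 9.53 in the mutants.

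Of the 9 genes, 7 had a lower mean in the mutant, and none passed an adjusted p under 0.05 in either direction by limma. Over all clusters tested, 0.0671% passed that threshold as higher and 0% as lower. At an unadjusted p under 0.05, *Fgf10* was lower, and the other 8 did not pass, beside 5.9% of all clusters lower and 1.68% higher. The mutant arrays all lay below the wildtype arrays for 3 genes, *Fgf10*, *Foxc1* and *Foxc2*, and for 9.59% of all clusters, while they all lay above for no gene of the 9 and for 2.82% of all clusters. The median difference over the 9 genes was -0.09, the same as over all clusters at this rounding. All 9 passed the filter, a mean linear value over 100 (6.64 on the log2 scale) in the higher genotype. *Six2* passed only through the mutant, with mean linear values of 96.9 in wildtype and 107.3 in mutant, so nothing is read from its direction.

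**Figure D1:**
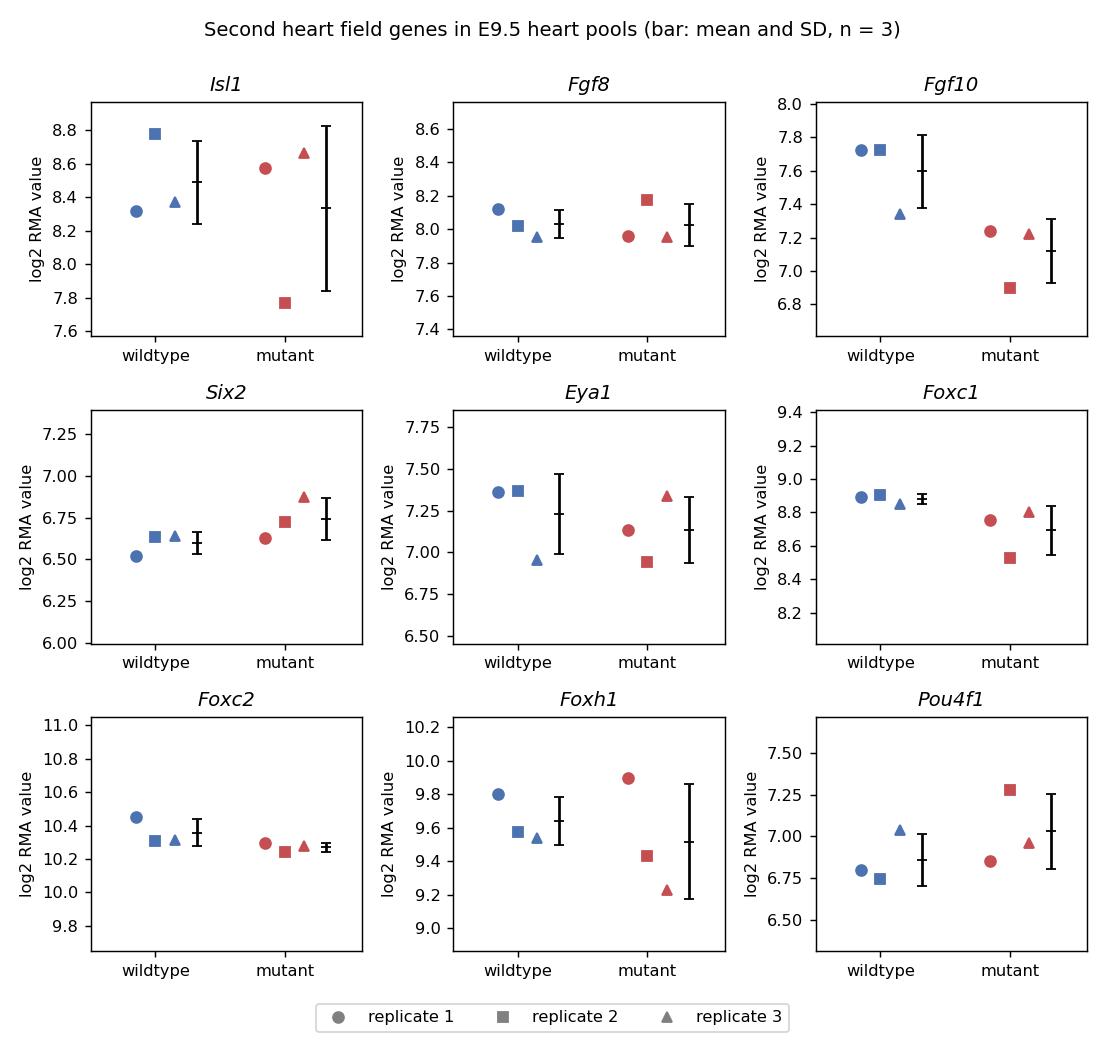
Log2 RMA value of each of the 9 genes on the y axis, by genotype on the x axis, with each array as a symbol for its replicate number (blue wildtype, red mutant) and the mean and SD (n = 3) as a bar. All panels span the same number of log2 units, and the mutant arrays lie below all wildtype arrays in the panels of *Fgf10*, *Foxc1* and *Foxc2*, by gaps of 0.10, 0.04 and 0.02.

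*Isl1* encodes the LIM homeodomain factor that marks most second heart field progenitors and is required for their survival and movement into the heart. In the order of the replicate numbers, used for all values here, it measured 8.32, 8.78 and 8.37 in wildtype and 8.57, 7.76 and 8.66 in mutant. A single mutant pool, replicate 2, lay below every other array, and the remaining mutant pools fell inside the wildtype range. Means were 8.49 ± 0.25 and 8.33 ± 0.49 (SD, n = 3). The difference of -0.16 (standard error 0.236, 95% interval -0.69 to 0.38) did not pass the test (adjusted p = 0.815). Without mutant replicate 2 it was 0.13 (standard error 0.157), in the opposite direction. The direction of *Isl1* did not hold over the pools.
The spread of *Isl1* between mutant pools was wide for these arrays. Its SD among the mutants exceeded that of 98.5% of clusters tested, and its wildtype SD that of 84.7%, against median SDs of 0.131 in wildtype and 0.138 in mutant over all clusters. By replicate number, mutant minus wildtype was 0.26, -1.01 and 0.29.

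*Pou4f1*, which encodes a POU homeodomain factor best known in sensory neurons and also expressed in early heart, was among the dimmer genes. It measured 6.80, 6.75 and 7.04 in wildtype and 6.85, 7.28 and 6.96 in mutant. The groups overlapped, with mutant replicate 2 highest. Its means of 6.86 ± 0.15 and 7.03 ± 0.22 (SD, n = 3) differed by 0.17 (standard error 0.139, interval -0.15 to 0.49, adjusted p = 0.662). Without mutant replicate 2 it stood at 0.0462, and with the erythroid median of the arrays as a covariate at 0.42. That median was higher on every mutant array than on any wildtype array, so such a fit cannot separate it well from genotype. Among LIM homeodomain and POU4 relatives and their cofactors, 8 of 14 listed genes were tested. Of these, 5 lay above 0 and 3 below, with a median of 0.06. At an unadjusted p under 0.05, 1 was lower, beside 5.9% of all clusters. This was *Lhx9*, a LIM homeodomain factor expressed in the septum transversum and proepicardium, which measured 7.57, 7.65 and 7.38 in wildtype and 7.31, 6.29 and 7.27 in mutant, a difference of -0.58 (standard error 0.251, adjusted p = 0.606). Mutant replicate 2 again lay far below the rest. The *Isl1* relative *Isl2* differed by 0.05, and *Ldb1*, which encodes the cofactor that joins LIM homeodomain proteins into complexes, by 0.08.

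*Fgf10* had the largest difference of the 9 genes. It encodes an FGF ligand made by the anterior second heart field, where it acts with FGF8 to keep progenitors dividing. It measured 7.72, 7.72 and 7.34 in wildtype and 7.24, 6.90 and 7.22 in mutant. Every mutant pool lay below every wildtype pool, with 0.10 between the lowest wildtype value, replicate 3, and the highest mutant value, replicate 1. Means were 7.60 ± 0.22 and 7.12 ± 0.19 (SD, n = 3), a fold of 0.719. The difference of -0.48 (standard error 0.145, interval -0.81 to -0.15) had an unadjusted p of 0.0102 and ranked 174 among 10439 clusters, and it did not pass after adjustment (adjusted p = 0.606, limma).
The direction of *Fgf10* held in each alternative analysis, but most of these could not have changed it. Its groups did not overlap, so leaving out single arrays could not reverse the sign. Other filters, other variances and the replicate block left the difference itself at -0.48. Only the rescalings and the erythroid covariate could have reversed it. Leaving out single arrays gave differences between -0.60, without wildtype replicate 3, and -0.37, without mutant replicate 2, and rescaling the arrays to a common distribution gave -0.46. Unadjusted p was under 0.05 in 19 of 19 alternatives on the log2 scale, the largest being 0.0473 by the methods' t-test, and the adjusted p reached 0.148 at its lowest, without wildtype replicate 3, and 0.9997 at its highest. The erythroid median was higher on every mutant array than on any wildtype array, so as a covariate it was confounded with genotype. With it in the model, *Fgf10* stood at -0.81 (standard error 0.178, adjusted p = 0.170). By replicate number *Fgf10* was at -0.49, -0.82 and -0.12. Since its groups did not overlap, any pairing of the arrays gives values below 0.

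*Fgf8* had nearly equal means in both genotypes. FGF8 is required in the second heart field for growth of the outflow tract, and its gene is expressed in pharyngeal mesoderm and epithelium. *Fgf8* measured 8.12, 8.02 and 7.95 in wildtype and 7.96, 8.17 and 7.95 in mutant. The values of the genotypes were interleaved, with mutant replicate 2 highest and wildtype replicate 3 lowest. Means were 8.03 ± 0.08 and 8.03 ± 0.13 (SD, n = 3), and the difference of -0.00188 (standard error 0.106, adjusted p = 0.996) had an interval of -0.24 to 0.24. The difference between *Fgf10* and *Fgf8* was not itself tested.
The rest of the FGF pathway lay close to all genes. Of the other FGF ligands and the receptors, 9 of 17 were tested, with a median of -0.06, 4 above 0 and 5 below. At an unadjusted p under 0.05, 1 was lower, beside 5.9% of all clusters. It was *Fgf13*, an intracellular FGF that binds sodium channels, at -0.23 (standard error 0.101). The receptor gene *Fgfr1* was at -0.21, *Fgfr2* at -0.11 and *Fgf9* at -0.28, with none of these past that threshold. The transducers, targets and feedback inhibitors of FGF signalling, such as *Spry2*, *Etv4* and *Dusp6*, comprised 15 genes tested of 17. They ranged from -0.26 to -0.02 with a median of -0.12, and none passed an unadjusted p under 0.05, the smallest being 0.115. All 15 lay below 0 in the values as deposited, beside 71.8% of all clusters. After quantile normalisation 11 did, beside 58.2%, and after cyclic loess 9, beside 54.4%. Both rescalings also moved the median of all clusters toward 0.
*Etv4*, a target of FGF signalling, measured 7.80, 7.67 and 7.20 in wildtype and 7.36, 7.45 and 7.08 in mutant, a difference of -0.26 (standard error 0.170). The groups overlapped through wildtype replicate 3. *Spry2*, which encodes a feedback inhibitor, differed by -0.22 (standard error 0.124) and *Dusp6*, a phosphatase that acts on ERK, by -0.05 (standard error 0.108).

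**Figure D2:**
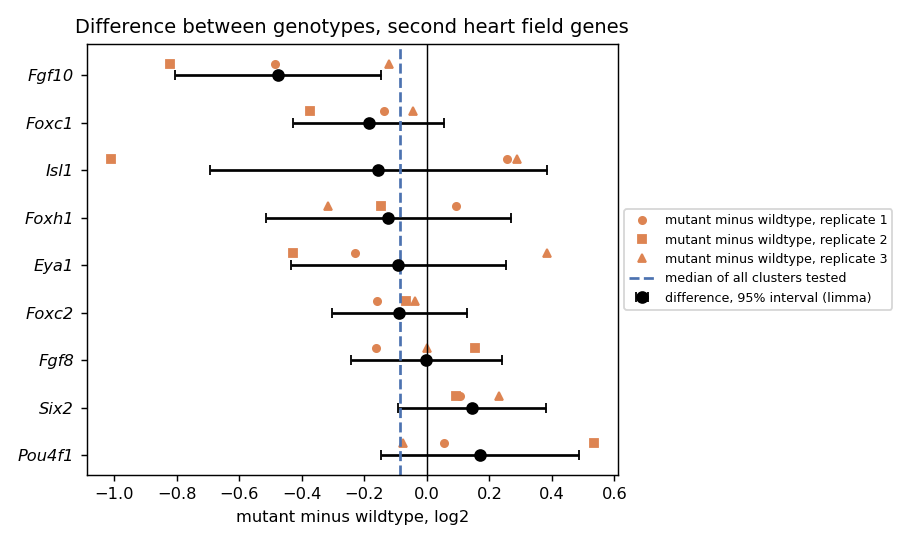
Mutant minus wildtype in log2 units on the x axis for each of the 9 genes, with the limma difference and 95% interval in black and the differences by replicate number in orange. Only the interval of *Fgf10* lies wholly below 0, the orange points of *Isl1* span -1.01 to 0.29, and the dashed line at -0.09 is the median of all clusters tested.

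*Six2* encodes a homeodomain factor and *Eya1* a coactivator that such factors bring to DNA, since EYA proteins do not bind it themselves. *Six2* marks a subset of second heart field progenitors. It measured 6.52, 6.63 and 6.64 in wildtype and 6.63, 6.73 and 6.87 in mutant. The ranges overlapped only through mutant replicate 1, which lay just under the upper wildtype pools, and all values were close to the filter. *Six2* differed by 0.14 (means 6.60 ± 0.07 and 6.74 ± 0.12, SD, n = 3, standard error 0.104, interval -0.09 to 0.38, adjusted p = 0.642).
*Eya1* measured 7.36, 7.37 and 6.95 in wildtype and 7.13, 6.94 and 7.34 in mutant. Wildtype replicate 3 and mutant replicate 2 were the low pools, so each genotype spanned nearly the same range. The means of 7.23 ± 0.24 and 7.14 ± 0.20 (SD, n = 3) differed by -0.09 (standard error 0.151, interval -0.44 to 0.25, adjusted p = 0.824), and by 0.00575 without mutant replicate 2. With the erythroid covariate, which is confounded with genotype, *Eya1* stood at -0.48, at an unadjusted p of 0.0276 (adjusted p = 0.179, limma).
Of the other genes of the *Six2*, *Eya1* and *Dach1* families, 4 of 10 were tested, with a median of -0.25. All 4 lay below 0, also after quantile normalisation and cyclic loess, beside 71.8%, 58.2% and 54.4% of all clusters. At an unadjusted p under 0.05, *Eya4* was lower, beside 5.9% of all clusters. It measured 7.50, 7.44 and 6.97 in wildtype and 6.92, 6.63 and 7.13 in mutant. *Eya4* differed by -0.41 (standard error 0.176, adjusted p = 0.606). Mutant replicate 3 lay above wildtype replicate 3, so its groups overlapped. The others were *Dach1*, a corepressor gene, at -0.27, *Six4* at -0.22 and *Eya3* at -0.16.

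The forkhead genes *Foxc1* and *Foxc2* encode closely related factors that act together in second heart field, endothelial and neural crest cells. *Foxc1* measured 8.89, 8.90 and 8.85 in wildtype and 8.75, 8.53 and 8.80 in mutant. The wildtype pools were tightly grouped, with an SD above that of 4.89% of clusters only, and all mutant pools lay under them by at least 0.04. Its means of 8.88 ± 0.03 and 8.70 ± 0.15 (SD, n = 3) differed by -0.19 (standard error 0.106, interval -0.43 to 0.06, unadjusted p = 0.115, adjusted p = 0.608). Without mutant replicate 2 it stood at -0.10, and after quantile normalisation or cyclic loess at -0.0926 or -0.0909.
*Foxc2* measured 10.45, 10.31 and 10.31 in wildtype and 10.29, 10.24 and 10.28 in mutant. The 3 mutant values lay within 0.05 of each other, an SD above that of 3.34% of clusters, and just below the lowest wildtype value. Its difference was -0.09 (means 10.36 ± 0.08 and 10.27 ± 0.03, SD, n = 3, standard error 0.0942, interval -0.30 to 0.13, adjusted p = 0.736), which is that of the median cluster at this rounding. After the same rescalings it was -0.0139 and -0.0086, and without wildtype replicate 1 it was -0.0400. After quantile normalisation the groups of *Foxc1* and of *Foxc2* overlapped, while those of *Fgf10* did not, beside 9.84% of all clusters with all mutant arrays lower on that scale.
Both genes are also expressed in endothelium, and they are in the list of endothelial and endocardial markers. Of its 17 genes tested, 16 lay below 0, beside 71.8% of all clusters, 15 after quantile normalisation, beside 58.2%, and 14 after cyclic loess, beside 54.4%. The median was -0.20, and *Emcn* lay above 0. At an unadjusted p under 0.05, 4 were lower (*Nfatc1*, *Npr3*, *Flt1* and *Kdr*), beside 5.9% of all clusters, and none passed after adjustment. The summed linear values were 28400.8 to 29801.7 in wildtype and 24734.2, 24947.8 and 28925.1 in the mutants, so mutant replicate 3 lay within the wildtype range. Their part in the values of *Foxc1* and *Foxc2* was not tested.

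*Foxh1* encodes the forkhead factor that carries NODAL signals to DNA with SMAD2 and SMAD3, and in mouse it is needed for the anterior second heart field. It measured 9.80, 9.58 and 9.54 in wildtype and 9.90, 9.43 and 9.22 in mutant. Replicate 1 was the highest pool of each genotype and replicate 3 the lowest, and the mutant pools spanned 0.673, against 0.264 in wildtype. The mutant SD exceeded that of 93.8% of clusters. Its means of 9.64 ± 0.14 and 9.52 ± 0.34 (SD, n = 3) differed by -0.12 (standard error 0.172, interval -0.51 to 0.27, adjusted p = 0.797), by 0.02 without mutant replicate 3 and by -0.03 after quantile normalisation or cyclic loess. With the replicate number as a block the standard error fell to 0.111 and the adjusted p was 0.612.
In the NODAL pathway around it, 12 of 19 genes were tested. As deposited 7 lay below 0, beside 71.8% of all clusters. After quantile normalisation or cyclic loess 5 did, beside 58.2% or 54.4%. The ligand gene *Nodal* and the inhibitor gene *Lefty1* were below the filter. *Cfc1*, which encodes the CRYPTIC coreceptor of NODAL, was higher at an unadjusted p under 0.05, beside 1.68% of all clusters. It measured 7.77, 7.59 and 7.66 in wildtype and 8.35, 8.11 and 7.84 in mutant. The difference was 0.43 (standard error 0.139, adjusted p = 0.606). All mutant pools of *Cfc1* lay above all wildtype pools. The receptor gene *Acvr2a* was at -0.36, and *Smad2* and *Smad3* were at -0.09 and -0.16, none past the threshold.

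Many of the extreme values came from mutant replicate 2. It was the lowest of the 6 arrays for 5 of the 9 genes (*Isl1*, *Fgf10*, *Eya1*, *Foxc1* and *Foxc2*) and the highest for *Fgf8* and *Pou4f1*. Over all clusters tested the same array was lowest for 43.9% and highest for 11.6%, while the deviations of *Isl1* (-0.65), *Fgf10* (-0.46), *Foxc1* (-0.26) and *Eya1* (-0.24) on it were below its median of -0.10 over all clusters. Wildtype replicate 1 was the highest for 42.7% of clusters and for *Fgf10* and *Foxc2* among the 9.
Lists of neighbouring tissues showed where this pool stood apart. As the median deviation from each gene's mean over the 6 arrays, it lay at -0.52 for 13 posterior second heart field genes, at -0.55 for 8 proepicardial and epicardial markers and at -0.49 for 4 paraxial mesoderm markers, where all clusters had the median just given. Cardiomyocyte markers were at 0.10 in the same pool, the highest of the 6 arrays. Single members went against these medians in this pool. *Uncx* of the paraxial list (7.73) and *Krt19* of the proepicardial list (11.115) were at their highest, and *Wt1* (9.48) was above its mean. *Tbx18* and *Aldh1a2* are in both the posterior and the proepicardial list, so these lists are not separate. The low deviation of *Isl1* there, at -0.65, went with those of the venous and proepicardial lists, and their part in it was not tested.

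**Figure D3:**
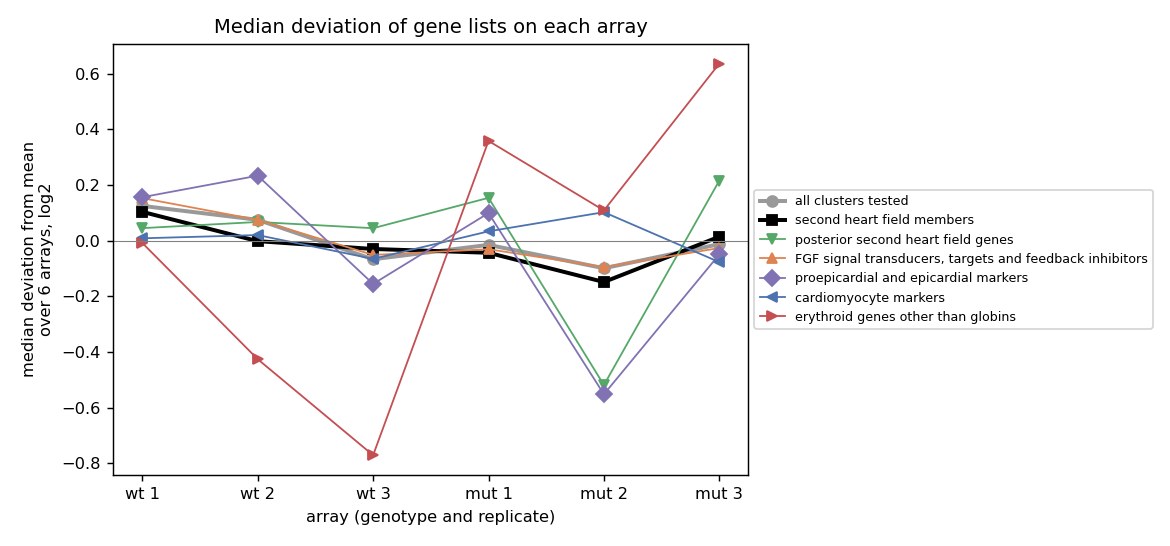
Median deviation in log2 units on the y axis, from each gene's own mean over the 6 arrays, for lists of genes on each array on the x axis. In mutant replicate 2 the posterior second heart field and proepicardial lists fall to -0.52 and -0.55 while cardiomyocyte markers stand at 0.10, and the 9 genes (black) stay near all clusters tested (grey).

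Few other genes of the second heart field passed an unadjusted p under 0.05. Of 28 further anterior second heart field and cardiopharyngeal genes listed, 25 were tested, with a median of -0.13. As deposited 19 lay below 0, beside 71.8% of all clusters. After either rescaling 18 did, beside 58.2% with quantile normalisation and 54.4% with cyclic loess. Among the 25 tested, 2 passed an unadjusted p under 0.05, both lower, beside 5.9% of all clusters. All mutant arrays were lower for 4, beside 9.59%. *Sema3c*, a guidance ligand of the outflow tract, measured 9.45, 9.57 and 9.52 in wildtype and 9.18, 9.12 and 9.34 in mutant, a difference of -0.30 (standard error 0.101, adjusted p = 0.606). *Prdm1*, a transcriptional repressor gene active in pharyngeal and second heart field mesoderm, measured 7.23, 7.11 and 7.07 and then 6.75, 6.86 and 6.97, a difference of -0.28 (standard error 0.103, adjusted p = 0.606). The genotypes did not overlap for either gene. *Wnt5a* (-0.31) and *Fn1* (-0.25) followed by p value and did not pass.
The posterior second heart field, which feeds the venous pole, had 13 genes tested of 18. None passed an unadjusted p under 0.05. As deposited 9 lay below 0, around a median of -0.08, with 8 after quantile normalisation and 6 after cyclic loess. The shares of all clusters below 0 are given above. *Hoxb1*, which patterns this region, had the smallest p at 0.0584 and a difference of 0.34. *Aldh1a2*, which makes retinoic acid, measured 7.36, 7.78 and 6.99 in wildtype and 7.32, 6.27 and 7.27 in mutant, so that mutant replicate 2 again lay below all other arrays. Its difference of -0.42 had a standard error of 0.294.
The outflow tract list, which shares *Isl1* and *Fgf10* with the 9 genes, had 11 tested, 6 below 0 and a median of -0.0013. At an unadjusted p under 0.05, *Fgf10* and *Sema3c* were lower, beside 5.9% of all clusters, and both were already counted above. Summed linear values of this list were 37716.8 to 38532.9 in wildtype and 37532.3 to 37812.8 in the mutants.

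**Figure D4:**
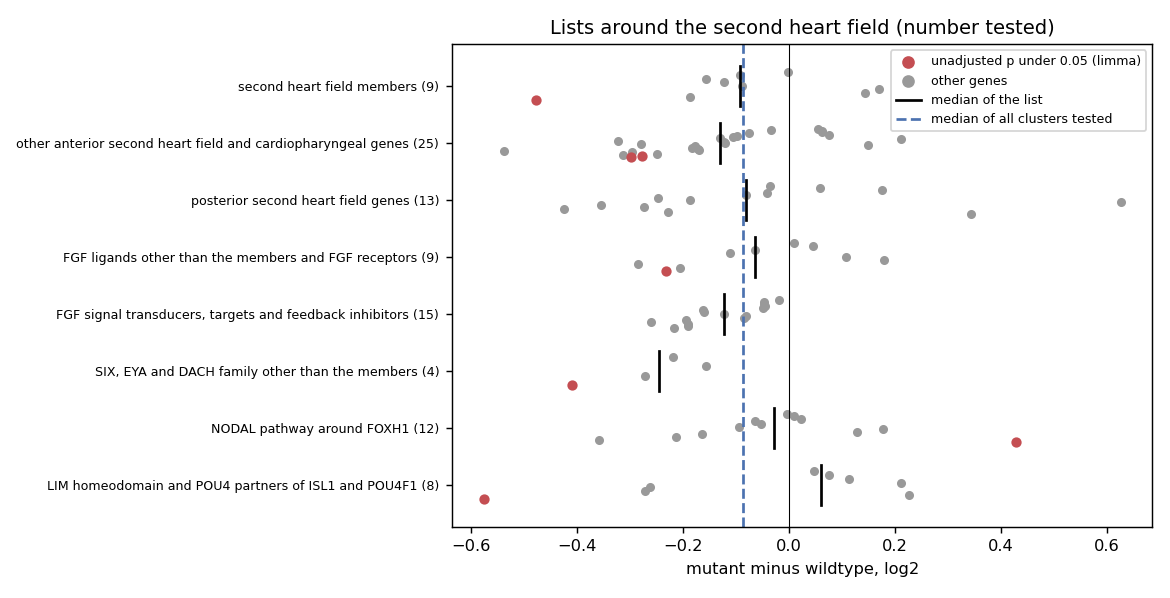
Mutant minus wildtype in log2 units on the x axis for the genes of 8 lists on the y axis, with the number tested in brackets, each point a gene, black marks the list medians and the dashed line the median of all clusters tested at -0.09. Red points passed an unadjusted p under 0.05, and the 7 that did are *Fgf10*, *Sema3c*, *Prdm1*, *Fgf13*, *Eya4*, *Cfc1* and *Lhx9*.

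Markers of tissues that could be carried along with the heart were examined pool by pool. Of pharyngeal and foregut epithelium markers, where *Fgf8* is also expressed, 6 of 15 were tested, and *Epcam*, *Shh*, *Sox2* and *Pax9* were below the filter. Their summed linear values were 1137 to 1349 in wildtype and 1132 to 1503 in the mutants, highest in mutant replicate 3, where *Fgf8* was at 7.95. *Foxa1*, *Cldn6* and *Cdh1*, each highest in that pool, passed the filter only through the mutant, so nothing is read from the sum. Of those that passed in both genotypes, *Foxa2* was highest in mutant replicate 3, *Krt18* in wildtype replicate 1 and *Pax1* in mutant replicate 2. Of neural crest and sensory neuron markers, among which *Pou4f1* is a textbook gene, 5 of 20 were tested. Their summed values, 1324 to 1657 and 1131 to 1364, came mostly from *Ets1*, with mean linear values of 1061 and 801. The sum was lowest in mutant replicate 2, where *Pou4f1* was highest. *Sox10* (6.95) and *Neurog2* (6.97) were also highest in that pool, while *Ets1* (9.47) and *Stmn2* (6.36) were lowest. *Elavl4*, at 6.50 there, passed the filter only through wildtype. *Ets1* of that list, which is also expressed in endothelium, was lower at an unadjusted p under 0.05 (-0.41), beside 5.9% of all clusters. *Stmn2* was at -0.39 and passed the filter only through wildtype, with mean linear values of 123.0 and 93.5, so no call is read from it. Paraxial mesoderm markers, 4 tested of 14, gave 916 to 1021 in wildtype and 731 to 1127 in the mutants. *Upk1b* of the proepicardial list was lower at that threshold (-0.41). *Foxa1* of the epithelial list was at 0.51 and passed the filter only through the mutant, with mean linear values of 71.6 and 105.8, so no call is read from it either.
Liver and yolk sac endoderm markers varied widely between pools of both genotypes. Of 10 listed, 7 were tested and all 7 lay above 0, with a median of 0.41. That count and median include *Ambp*, *Alb* and *Afp*, whose direction was fixed by passing the filter only through the mutant. *Trf* (0.41), *Ttr* (0.32), *Rbp4* (0.17) and *Apoa2* (0.08) passed it through both genotypes. Summed linear values of the 7 were 1621, 904 and 639 in wildtype and 1145, 794 and 2889 in the mutants. The sum was highest in mutant replicate 3 and next in wildtype replicate 1. *Trf* (9.44), *Ttr* (8.76) and *Apoa2* (8.04) were also highest in mutant replicate 3, against 8.68, 8.64 and 7.85 in wildtype replicate 1. *Rbp4* was highest in wildtype replicate 1. *Alb*, which encodes albumin, measured 4.87, 4.57 and 4.80 in wildtype and 5.33, 4.96 and 8.28 in mutant. *Afp*, which encodes alpha-fetoprotein, was highest in mutant replicate 3 at 9.44 and next in wildtype replicate 1 at 7.89. *Ambp*, at 1.46, had an unadjusted p of 0.0389 by limma, but *Ambp*, *Alb* and *Afp* passed the filter only through the mutant, so nothing is read from their direction. Mutant replicate 3 was the lowest array for *Foxh1* and the highest for *Six2*, and the part of these markers in those values was not tested. Without it *Six2* was at 0.0781. No gene of any of these lists passed after adjustment.

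The clusters most alike to each gene were found by the root mean square difference of log2 values centred on each cluster's own mean, over 9987 other single-gene clusters and 6 arrays. *Isl1* was nearest to *Rgs5*, a regulator of G protein signalling, at 0.0743, then to *Tll1*, a secreted protease, at 0.0821 and *Cntfr*, a cytokine receptor, at 0.103, where the median cluster was at 0.318. This *Rgs5* cluster measured 6.84, 7.27 and 6.81 in wildtype and 7.25, 6.29 and 7.22 in mutant. It shares with *Isl1* the low mutant replicate 2 and the high wildtype replicate 2. *Rgs5* has another, brighter cluster, used in the lists, which measured 8.44, 8.67 and 8.66 in wildtype and 8.64, 7.90 and 9.40 in mutant. Mutant replicate 2 was lowest in both clusters, and mutant replicate 3 stood apart only in the brighter one.
*Fgf10* was nearest to *Dock9* at 0.0569, *Fam13a* at 0.0590 and *Ripk3* at 0.0603, where the median cluster was at 0.250. *Dock9* measured 8.67, 8.71 and 8.40 in wildtype and 8.34, 7.95 and 8.32 in mutant. Every mutant pool lay below every wildtype pool, as for 9.59% of all clusters. *Dock9* was picked for its likeness to *Fgf10*, so this is no second instance. *Eya1* was nearest to *Il17rd* at 0.0351, a feedback inhibitor of FGF signalling, followed by *Adamts7* and *Tox3*. *Foxc2* was nearest to *Ciz1*, *Spry4* and *Smad7*, *Foxc1* to *Pxk*, *Nop14* and *Zbtb20*, and *Foxh1* to *Gch1*, *Smco4* and *Bend5*. *Pou4f1* lay nearest to *Dmrta2*, *Fgf4* and *Vstm2l*, *Six2* to *Crispld2*, *Rundc3a* and *Tmem47*, and *Fgf8* to *Miga2*, *Vamp3* and *Cenpx*. Among the 9 genes themselves, *Foxc1* and *Foxc2* were the closest pair at 0.0982, with *Fgf8* and *Foxc2* at 0.0987. The first of these distances is larger than the distance of *Foxc2* from a flat line, 0.0666. With 6 arrays, many clusters share any given pattern.

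**Figure D5:**
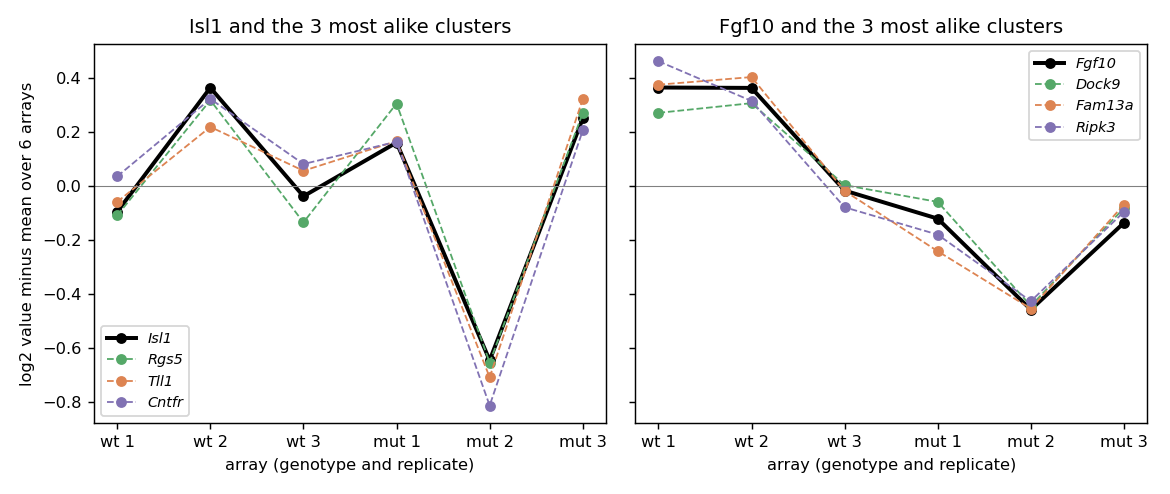
Log2 value minus the mean over the 6 arrays on the y axis, by array on the x axis, for *Isl1* (left) and *Fgf10* (right) in black and the 3 clusters most alike to each as dashed lines. The lines of the left panel share a low mutant replicate 2, at -0.65 for *Isl1*, and those of the right panel step down from wildtype replicates 1 and 2 to the mutants.

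By position, *Isl1*, *Fgf10* and *Foxc1* lie on chromosome 13, and the others on chromosomes 1 (*Eya1*), 8 (*Foxc2*), 14 (*Pou4f1*), 15 (*Foxh1*), 17 (*Six2*) and 19 (*Fgf8*), by the RefSeq table of GRCm38.p6. The coding genes on either side of *Fgf10*, *Mrps30* and *Nnt*, differed by 0.07 and -0.01, so the lower values of *Fgf10* were not seen in its neighbours. *Parp8*, beside *Isl1*, was at -0.12 and *Gmds*, beside *Foxc1*, at -0.13. Beside *Pou4f1*, which had a higher mutant mean, the endothelin receptor gene *Ednrb* was at -0.45 (standard error 0.134, unadjusted p = 0.0095, adjusted p = 0.606) and *Obi1* at -0.26 (unadjusted p = 0.0448, limma). The remaining neighbours that were tested, *Fbxw4*, *Srbd1*, *Mthfsd*, *Kifc2* and *Ppp1r16a*, ranged from -0.32 to 0.17 and did not pass at that threshold.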

How the data were processed

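RNA was hybridised to 6 Affymetrix Mouse Exon 1.0 ST arrays. The authors used RMA in the Affymetrix Expression Console, at gene level with the core predictions, and the deposited log2 values were taken unchanged. Software version and genome build were not given in the sources used here, and E13.5 hearts and RT-qPCR were not analysed here. All 6 columns were used. The filter followed the methods and kept annotated clusters with a mean linear value over 100 in the higher genotype, 10439 in all. Genotypes were compared with limma 3.58.1 under R 4.3.3 by lmFit and eBayes without a block, with Benjamini-Hochberg adjustment at 0.05, after the code had been tested on simulated data. Intervals are 95%. Figures used Python 3.11.15 and matplotlib 3.10.9. The 3 arrays per genotype limit the precision. The 9 genes and the lists were chosen with earlier results of these data known. Named genes are the 9, up to 4 of each list with the lowest p, the 3 most alike clusters per gene, their neighbours by position, *Hic2* and *Mesp1*, and some list members chosen after their values were seen. Alternatives were the methods' t-test on log2 or linear values, trend and robust variances, other filters, rescaling, the replicate number as a block, an erythroid covariate and single arrays left out. To see whether replicate numbers pair arrays, deviations from the genotype means were correlated. Arrays of the same number gave 0.311, 0.142 and 0.458, and others -0.424 to 0.303. Wildtype replicate 2 correlated more with mutant replicate 1 (0.303) than with mutant replicate 2 (0.142). Mutant replicate 2 correlated more with wildtype replicate 1 (0.231). The numbers were used as pairs for the block and the differences by replicate number, but this pairing is uncertain and no label explains them.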

Additional observations from a re-analysis of the deposited data

How the results depend on the processing

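None of the 9 genes passed an adjusted p under 0.05 in any alternative run, and *Fgf10* was the gene lower at an unadjusted p under 0.05 in each of them, with *Eya1* beside it (2 genes) only when the erythroid median was a covariate. *Fgf10*, *Foxc1* and *Foxc2* stayed below 0 and *Six2* and *Pou4f1* above 0 in all. For the first 3 the groups did not overlap, so leaving out single arrays could not change the sign. *Six2* passed the filter only through the mutant, so nothing is read from its direction. *Fgf8* moved to 0.0489 with quantile normalisation, with or without the block, to 0.0725 with cyclic loess and to 0.02454 linear units by the methods' t-test on linear values, and ranged from -0.0741 to 0.0430 as single arrays were left out. Leaving out single arrays gave -0.32 to 0.13 for *Isl1*, -0.23 to 0.00575 for *Eya1* and -0.31 to 0.0237 for *Foxh1*. The positive values came without mutant replicate 2 for *Isl1* and *Eya1* and without mutant replicate 3 for *Foxh1*. The replicate block changed no call of the 9 genes (smallest adjusted p = 0.467) and raised the clusters higher at an unadjusted p under 0.05 from 175 to 281, or to 574 with quantile normalisation, a combination chosen after seeing the data. The mean of a gene's clusters and its other clusters were not run, since each gene had 1.

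Over all clusters, the 7 higher after adjustment became 0 by either methods' t-test and with the erythroid covariate, and 4 to 8 as single arrays were left out. Those lower after adjustment, 0 as reported (616 at an unadjusted p under 0.05), became 1 with median centring, 3 with quantile normalisation, 1 with cyclic loess and 0 to 6 without single arrays. Higher clusters at an unadjusted p under 0.05 numbered 306 without the intensity filter, 407 with clusters without a gene kept, 344 with quantile normalisation, 389 with cyclic loess, 107 with the covariate and 113 to 343 without single arrays. Lower ones numbered 1166 with median centring, 2391 with the covariate and 178 to 1891 without single arrays, most without wildtype replicate 3. The median of all clusters moved from -0.09 to -0.03 with quantile normalisation, -0.01 with cyclic loess and -0.23 with the covariate, and the share below 0 from 71.8% to 58.2%, 54.4% and 80.8%. The cause of these changes was not tested. Background signals were not analysed here, so how far signal over background limits the dim *Six2* is not known.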
